A study of Mus musculus with 10 samples.

Results

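The genes that encode the protein subunits of the cytosolic ribosome were read against 5 lists of genomic regions enriched for the transcription factor Dlx2. They were chosen by symbol, as protein-coding mouse genes named Rpl or Rps with a number, together with Rplp0, Rplp1, Rplp2 and Rpsa. Names of S6 kinases, of -like genes and of pseudogenes were left out. The rule found 78 genes of 21900 protein-coding genes, 47 for the large (60S) and 31 for the small (40S) subunit. It takes in the retrogene-type copies Rpl37rt and Rps27rt, and it misses some other genes whose products are part of the ribosome, among them Rps3a1, Fau and Rack1. The genes are short, from 374 to 11774 bp with a median of 3169.5 bp, against a median of 17146 bp over all protein-coding genes. They were picked as a control set of highly transcribed genes, and these files hold no measure of their transcription.

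Dlx2 chromatin immunoprecipitation and sequencing (ChIP-seq) was done on mouse brain tissue, with 1 immunoprecipitated library for each of 5 groups: at embryonic day 16 (E16) the cortex, the basal ganglia and the olfactory bulb, and at postnatal day 3 (P3) the cortex and the olfactory bulb. All 5 used an anti-Dlx2 antibody on formaldehyde-fixed tissue. The labels name no strain, genotype or treatment, and whether tissue of several animals was pooled is not given. The 5 input libraries were not analysed here, and neither were the IgG control reactions that the protocol mentions. With 1 library a group there is no replicate, so every difference between lists is a description of these libraries and none was tested.

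Ribosomal proteins bind ribosomal RNA and shape the decoding centre, the peptidyl transferase centre and the exit tunnel. Their genes are transcribed in all cells from short promoters in which initiation falls at a cytosine within a run of C and T, and their messenger RNAs share this terminal oligopyrimidine tract at the 5′ end. Many of the introns hold small nucleolar RNAs (snoRNAs), which guide modification of ribosomal RNA. Dlx2 carries a homeodomain. In the developing forebrain it acts with Dlx1, Dlx5 and Dlx6 in the specification of GABAergic neurons, and homeodomains of this type recognise the letters TAATT.

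The lists hold 14795 regions in the E16 basal ganglia, 6333 in the E16 cortex, 1666 in the E16 olfactory bulb, 734 in the P3 olfactory bulb and 2139 in the P3 cortex. Read depth is unknown. The strength of a region is given as the authors' fold enrichment, the signal at the summit over local background, and as the authors' −log10 q. Both belong to 1 region in its own library, so values of different lists stand side by side without a common scale. The strongest summit of a gene is the one highest in −log10 q, which need not be the one highest in fold enrichment. The region names follow 1 pattern in the lists of the E16 cortex and basal ganglia and other patterns in the other 3. Between these 2 lists and the rest a difference in preparation or calling therefore cannot be told apart from tissue and age. Region names also hold the letters dedup in every list except that of the P3 cortex. That list thus differs from the others by label as well. For comparison, 12 genes of the GABAergic lineage (Dlx and Gad genes, Slc32a1, Lhx6 and others) were read against the lists. All 12 had a summit within 5 kb in the E16 basal ganglia, against 23.4% of all protein-coding genes. All 12 also had one in the E16 cortex, against 14.8%. In the E16 olfactory bulb 7 of them had one, against 3.24%. Each P3 list had 3 of them, against 1.8% in the olfactory bulb and 5.3% in the cortex. These 12 genes were chosen with earlier results of these data known, so their counts are not an independent check of the target.

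Ribosomal protein genes carried many Dlx2 summits in 2 of the 5 lists, and 0 or 1 in the other 3. In the E16 basal ganglia 58 of the 78 genes had a summit inside the gene or within 5 kb of it, which is 74.4% (63.2 to 83.6%). Over all protein-coding genes the share was 23.4%, and over the 8810 protein-coding genes no longer than the longest ribosomal protein gene it was 16.1%. In the E16 cortex 59 of 78 had one, 75.6% (64.6 to 84.7%), against 14.8% of all protein-coding genes and 12.8% of the short ones. The E16 olfactory bulb list had a summit at 0 of 78 genes (interval up to 4.62%), where 3.24% of all and 0.783% of short protein-coding genes had one. The P3 olfactory bulb list also had 0 of 78 (up to 4.62%), against 1.8% of all and 0.488% of short genes. The P3 cortex list had 1 of 78, 1.28% (0.0325 to 6.94%), against 5.3% of all and 1.94% of short genes. Intervals are exact Clopper-Pearson 95% intervals and cover counting error over the genes only. In the 3 lists with 0 or 1 gene, the shares of all and of short protein-coding genes lie within those intervals, so a difference from the background was not detectable there.

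**Figure D1:**
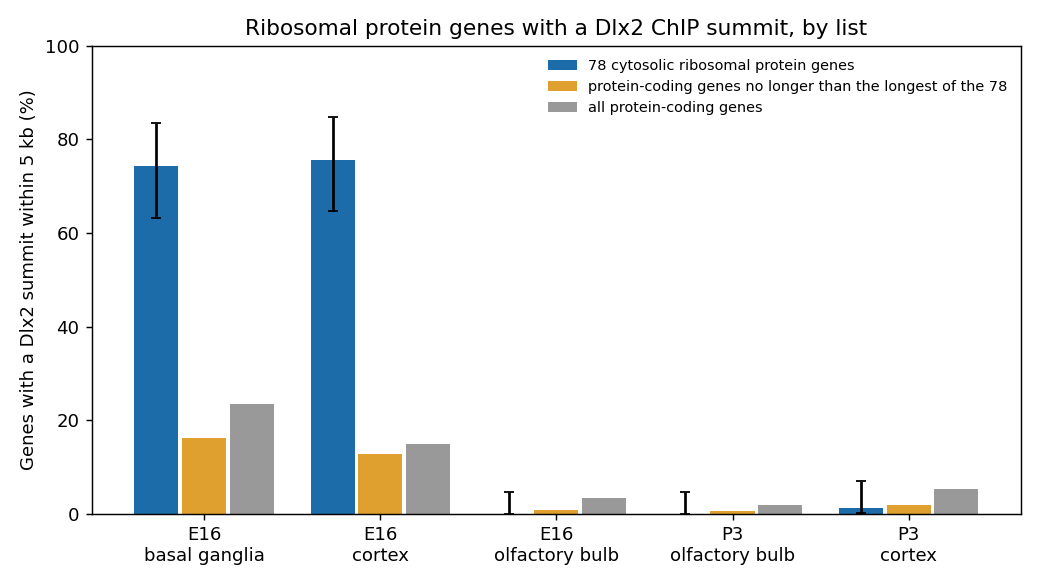
Percent of genes with a Dlx2 summit within 5 kb (vertical axis) in each of the 5 lists (horizontal axis), for the 78 cytosolic ribosomal protein genes, the short protein-coding genes and all protein-coding genes. Error bars are exact 95% intervals for counting error, and the ribosomal protein genes stand at 74.4% (basal ganglia) and 75.6% (cortex) in 2 of the E16 lists and at 0 to 1.28% in the other lists.

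The lists differ in length. When each list was reduced to its 734 regions highest in −log10 q, as many as the shortest list holds, 21 of 78 genes (26.9%) had a summit in the E16 cortex against 3.62% of all protein-coding genes. In the E16 basal ganglia 5 of 78 (6.41%) then had one, against 2.42% of all. The olfactory bulb lists stayed at 0 of 78, with 1.48% of all genes at E16 and 1.8% at P3, and the P3 cortex list at 1 of 78, with 1.96% of all. At equal length the E16 cortex list therefore held more ribosomal protein genes than the E16 basal ganglia list, whereas the full lists held about the same number.

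In the olfactory bulb lists the nearest summits lay outside the limit. The closest at E16 was 7657 bp from Rpl7a, a large subunit gene whose introns hold snoRNAs. At P3 it was 22357 bp from Rps15, a small subunit gene. The median distance from a ribosomal protein gene to its nearest summit was 610 kb in the E16 olfactory bulb, 1100 kb in the P3 olfactory bulb and 313 kb in the P3 cortex. For the E16 cortex and the E16 basal ganglia that median was 0 kb, since most genes held a summit in their own body. At the 5 kb limit, the last gene inside was Rps24 at 2678 bp in the E16 basal ganglia and the first outside was Rps28 at 5114 bp. In the E16 cortex Rps28 was inside at 4888 bp and Rps26 was outside at 10504 bp. Rps28 thus counts in 1 list and not in the other although both distances lie close to the limit.

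The single gene of the P3 cortex list was Rpl22, which encodes a large subunit protein that also binds other RNAs. Its P3 summit had a fold enrichment of 16.4 and a −log10 q of 87.3, and it ranked 43 in that list. The summit (chr4:152338183-152339062 for the 880 bp region, mm10) lay 4446 bp past the end of Rpl22 and 118 bp from Chd5, a chromatin remodeller gene of neurons. The E16 basal ganglia list had a different summit for Rpl22, inside the gene, with a fold enrichment of 4.69. The E16 cortex summit was 79 bp from that one, with a fold enrichment of 4.56. Rpl22 was the one gene of the 78 with a summit in 3 lists, but the third summit was nearest to another gene.

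The starts of the genes are shown here because the summits rarely fell on them. RefSeq start sequences (GRCm38.p6, the build of the lists) were at hand for 58 of the 78 genes. The first 3 runs go from 120 bases before to 20 after the annotated start, with the run of C and T at the start in capitals. They are the promoter ends of Rps18 (chr17:33955646-33955785, minus strand), Rps9 (chr7:3703921-3704060, plus strand) and Rpl13a (chr7:45128726-45128865, minus strand), all among the 10 strongest genes of the E16 cortex list.
Rps18: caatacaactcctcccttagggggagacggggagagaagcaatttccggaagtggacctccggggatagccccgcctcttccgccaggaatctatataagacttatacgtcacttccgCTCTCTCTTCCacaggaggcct
Rps9: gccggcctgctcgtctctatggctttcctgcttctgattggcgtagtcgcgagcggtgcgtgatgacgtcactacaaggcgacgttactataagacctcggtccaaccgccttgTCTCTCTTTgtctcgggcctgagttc
Rpl13a: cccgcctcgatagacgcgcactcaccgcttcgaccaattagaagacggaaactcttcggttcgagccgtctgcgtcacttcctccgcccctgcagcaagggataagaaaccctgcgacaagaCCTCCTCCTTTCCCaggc
The run is 11 bases long in Rps18, 9 in Rps9 and 14 in Rpl13a. A run of at least 8 C or T bases between 10 before and 30 after a start was found at 27 of 58 ribosomal protein genes (46.6%) and at 16.4% of the 17492 protein-coding genes in the same table. The letters CCGGAAG, the core bound by ETS factors and present in the Rps18 run printed here, stood in the 300 bases around the start of 23 of 58 genes (39.7%) and of 12.9% of all. AAGATGG, the core of the YY1 motif, was found in 9 (15.5%) against 7.18%, GGGCGG, bound by Sp1, in 34 (58.6%) against 49.2%, and TATAAA in 6 (10.3%) against 14.8%. Each motif was searched on both strands of the window from 250 bases before to 50 after the start, except the run of C and T, which was read on the strand of the gene.

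The homeodomain letters TAATT were no more frequent at ribosomal protein genes than elsewhere. They stood in the window of 14 of 58 genes (24.1%), against 26.5% of all protein-coding genes. The carriers were Rpl10a, Rpl13, Rpl13a, Rpl14, Rpl19, Rpl23, Rpl39, Rpl4, Rps15a, Rps25, Rps26, Rps27rt, Rps4x and Rps9. Of these 14, 10 had a summit within 5 kb in the E16 basal ganglia and 11 in the E16 cortex, against 33 and 31 of the 44 genes without the letters. A pair of them are printed as the 250 bases before the start, with TAATT, read on either strand, in capitals: Rpl13 (chr8:123102100-123102349, plus strand), whose start region held a summit, and Rpl4 (chr9:64173137-64173386, plus strand), which has 3 matches.
Rpl13: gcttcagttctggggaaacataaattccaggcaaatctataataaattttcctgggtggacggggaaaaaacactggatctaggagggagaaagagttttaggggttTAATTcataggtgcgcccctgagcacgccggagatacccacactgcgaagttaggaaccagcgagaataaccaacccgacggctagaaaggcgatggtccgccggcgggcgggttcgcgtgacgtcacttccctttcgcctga
Rpl4: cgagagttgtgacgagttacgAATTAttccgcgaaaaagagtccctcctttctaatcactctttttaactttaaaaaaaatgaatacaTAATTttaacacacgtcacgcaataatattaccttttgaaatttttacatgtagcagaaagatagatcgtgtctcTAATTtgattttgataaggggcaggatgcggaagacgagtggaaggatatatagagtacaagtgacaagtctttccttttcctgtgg
The Rpl4 summit of the E16 basal ganglia lay 6072 bp after the start, away from these letters. A match is a stretch of letters and not a binding site, and the sequence under the summits inside and past the genes was not analysed here.

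Summits lay in the gene bodies and past the gene ends, and seldom before the starts. For the 58 genes with a known strand, the E16 basal ganglia list held 83 summits, with 2 upstream of the gene (2.41%), 48 in the body (57.8%) and 33 downstream (39.8%). The E16 cortex list held 92, with 2 upstream (2.17%), 55 in the body (59.8%) and 35 downstream (38.0%). At the other protein-coding genes of up to the same length, 21.7% of 1962 summits were upstream in the E16 basal ganglia and 17.5% of 1550 in the E16 cortex. Per 100 kb of sequence, the ribosomal protein genes had 0.69 summits upstream, 21.9 in the body and 11.4 downstream in the E16 basal ganglia, and 0.69, 25.1 and 12.1 in the E16 cortex. The other short genes had 1.2, 2.62 and 1.87 in the E16 basal ganglia, and 0.771, 2.23 and 1.51 in the E16 cortex. The upstream density of the ribosomal protein genes was thus below that of other short genes in both lists, and rests on 2 summits in each. The body and downstream densities were higher in both lists.

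**Figure D2:**
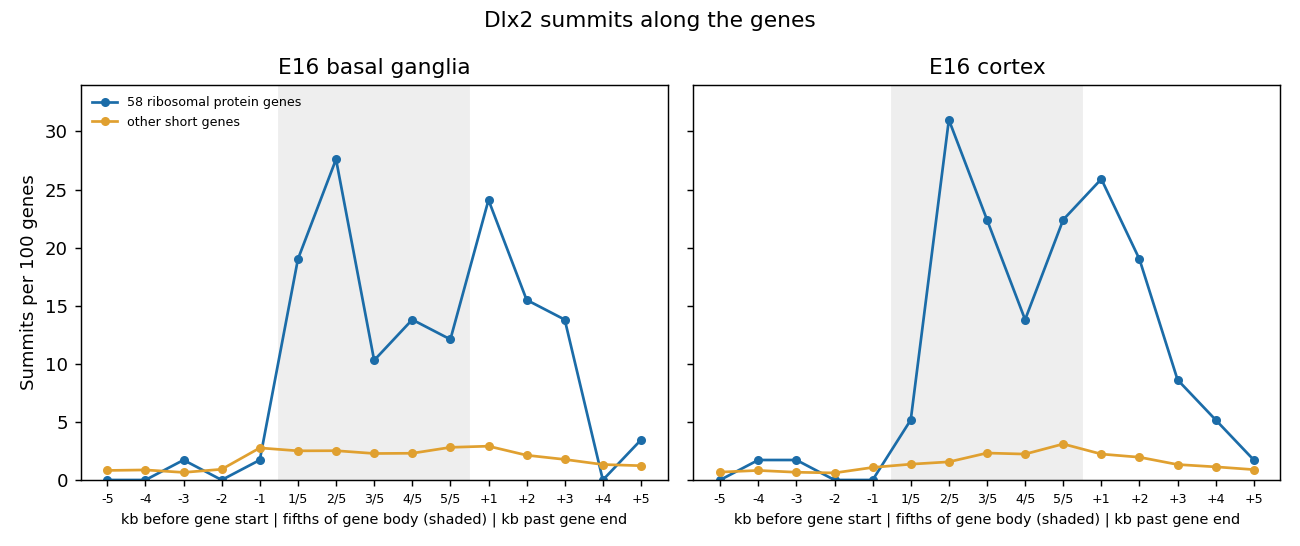
Summits per 100 genes (vertical axis) in 1 kb steps before the gene start, 5 equal parts of the gene body (shaded) and 1 kb steps past the gene end (horizontal axis), for 58 ribosomal protein genes and 7055 other short protein-coding genes. In both lists the ribosomal protein genes stand near the other genes before the start, and reach 27.6 (E16 basal ganglia) and 31.0 (E16 cortex) in part 2 of the body and 24.1 and 25.9 in the kb next to the end.

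Values at the gene start were not alike in the E16 cortex and basal ganglia lists. In the E16 basal ganglia 11 of 83 summits (13.3%) lay within 500 bp of an annotated start, against 12.5% at other short genes. The E16 cortex list had 0 of 92 there, against 6.19%. In the part of the body next to the start, 1 of 5 equal parts, the E16 basal ganglia list held 11 summits and the E16 cortex list 3. Of the 58 genes with a known start, a region covered that of 7 in the E16 basal ganglia (Rpl13, Rpl27, Rpl41, Rpl5, Rpl7a, Rps18 and Rps2). In the E16 cortex it was 1, Rpl12. The share of starts covered was not computed over other genes. Inside the 300-base start window there was 1 summit in the E16 basal ganglia, 37 bp after the start of Rpl13, and 0 in the E16 cortex. That Rpl13 summit was weak, with a fold enrichment of 3.39, while a stronger one 1011 bp after the start reached 8.83. The upstream summits were few: in the E16 cortex both were at Rpl19 and lay inside the neighbouring calcium channel gene Cacnb1.

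Most of the genes with a summit in the E16 cortex or basal ganglia had one in both lists. These lists shared 53 genes, which is 91.4% of the 58 in the E16 basal ganglia and 89.8% of the 59 in the E16 cortex. Over all protein-coding genes, 2728 had a summit in both lists, 53.3% of those in the E16 basal ganglia list and 84.0% of those in the E16 cortex list. As a share of the E16 cortex list, the ribosomal protein genes were thus near all genes. For the 53 genes, the strongest summits of both lists lay a median of 219 bp apart, and 39 were within 500 bp of each other. Of the 118 E16 basal ganglia regions at ribosomal protein genes, 88 overlapped an E16 cortex region by at least 1 bp (74.6%), against 26.4% of all regions of that list. Of the 125 E16 cortex regions, 84 overlapped (67.2%, interval 58.2 to 75.3%). The share over all regions of that list, 61.5%, lies within this interval. The fold enrichment of the strongest summit was higher in the E16 cortex in 38 of the 53 genes and higher in the E16 basal ganglia in 15. The median over all regions was also higher in the E16 cortex list, at 5.02 against 4.55. The order of the strongest fold enrichments was similar across the 53 genes in both lists, with a Spearman rho of 0.886 and a Pearson r of 0.872 on the log2 scale. The distances between strongest summits, the counts of genes higher in either list and these correlations were not computed over all genes with a summit in both lists. These are descriptions across genes, which are not independent replicates, and the lists share a naming pattern.

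**Figure D3:**
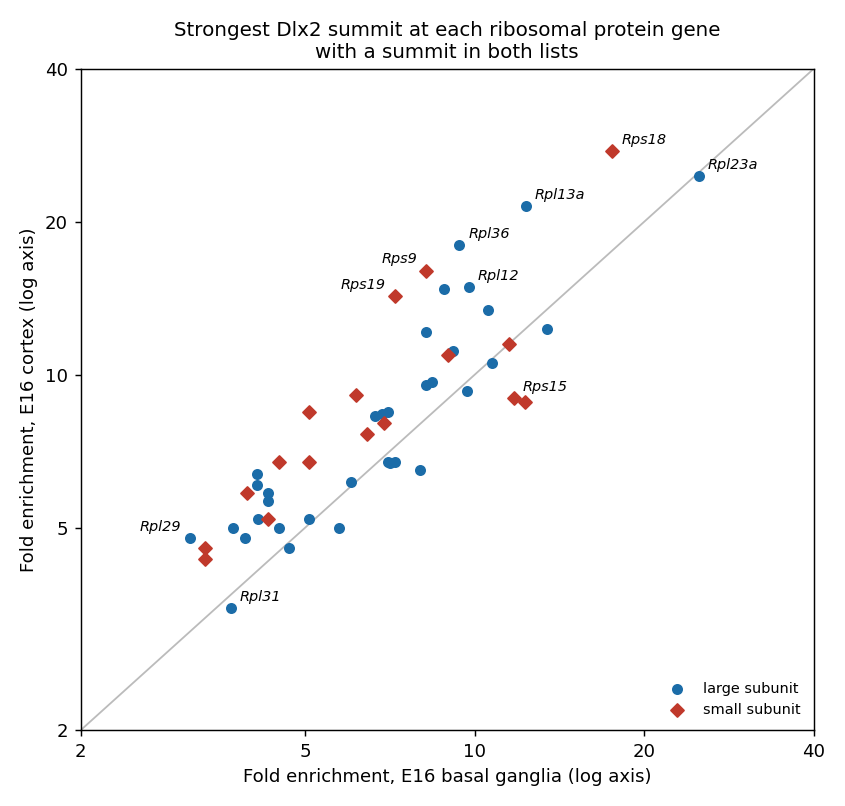
Authors' fold enrichment of the strongest summit within 5 kb in the E16 basal ganglia (horizontal axis, log scale) and the E16 cortex (vertical axis, log scale), with 1 point per gene for the 53 ribosomal protein genes with a summit in both lists, where genes of identical values share a point, in the colour of the large subunit where they differ in subunit. The grey line marks equal values; 38 genes lie above it and 15 below, and Rpl23a and Rps18 lie farthest to the upper right.

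Among large subunit genes, 38 of 47 (80.9%) had a summit in the E16 basal ganglia and 39 of 47 (83.0%) in the E16 cortex. The fold enrichment of their strongest summits ran from 2.54 to 25.01 with a median of 6.75 in the E16 basal ganglia. In the E16 cortex it ran from 3.48 to 24.6 with a median of 6.51. Rpl23a, whose protein sits by the exit tunnel, stood highest of all 78 genes by −log10 q in both lists. Its fold enrichment was 25.01 (−log10 q of 134) in the E16 basal ganglia and 24.6 (128) in the E16 cortex, at ranks 88 and 86. That summit lay 1920 bp from Rpl23a, inside Tlcd1, and the region was 3308 bp wide in the E16 basal ganglia. The next large subunit gene in the E16 cortex was Rpl13a, with a fold enrichment of 21.4 there and 12.3 in the E16 basal ganglia. Rpl13a hosts 4 snoRNAs, and its strongest E16 cortex summit lay inside the gene, 25 bp from a snoRNA.

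Several large subunit genes had a higher fold enrichment in the E16 cortex list. Rpl36 had a fold enrichment of 18.0 in the E16 cortex and 9.39 in the E16 basal ganglia. Rpl12, of the base of the ribosomal stalk, had 14.9 and 9.77, and Rpl13 had 14.7 and 8.83. Rpl19, of a bridge between the subunits, had 13.4 and 10.6, with its strongest summits 735 bp and 639 bp past the gene end. Others stood at nearly the same level: Rpl4, whose protein lines the exit tunnel and which hosts 5 snoRNAs, had 9.29 in the E16 cortex and 9.70 in the E16 basal ganglia. Rpl41, which encodes the shortest of the ribosomal proteins, had 10.6 and 10.7. Lowest by −log10 q in the E16 basal ganglia was Rpl5 (2.54), which carries 5S ribosomal RNA into the ribosome, and Rpl29 and the small subunit gene Rps7 came next, tied at 3.13. In the E16 cortex Rpl31 (3.48), which sits by the exit tunnel, was lowest, before Rpl7, Rpl34 and the small subunit gene Rps3, tied at 4.35. Rpl6, Rpl22, Rpl37a, Rpl39 and the small subunit gene Rps15a followed, tied at 4.56.

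The ribosomal stalk, where translation factors dock, is formed by Rplp0, Rplp1 and Rplp2, and these 3 genes differed. Rplp0 had 6 summits in the E16 basal ganglia, the strongest of 8.01, and 4 in the E16 cortex, the strongest of 6.51. Rplp1 had 1 summit of 4.30 and 3 summits with a maximum of 5.86. Rplp2 had none in any list. The largest number at any of the 78 genes was 7, at Rpl3 in the E16 basal ganglia, a gene for a protein by the peptidyl transferase centre. Its 7 summits had fold enrichments between 3.52 and 6.84 and lay from inside the gene to 2173 bp outside it. The Rpl3 locus had 3 summits in the E16 cortex, the strongest of 8.38.

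Among small subunit genes, 20 of 31 (64.5%) had a summit in the E16 basal ganglia, and 20 of 31 in the E16 cortex. The fold enrichment of their strongest summits ran from 3.13 to 17.5 with a median of 6.31 in the E16 basal ganglia. In the E16 cortex it ran from 4.35 to 27.5 with a median of 8.24. Rps18, near the head of the small subunit, was highest, with 17.5 in the E16 basal ganglia and 27.5 in the E16 cortex. Both summits lay just past its end, at 293 bp and 312 bp, and 217 bp and 198 bp from the next gene, B3galt4. Rps9 had 8.21 in the E16 basal ganglia and 16.03 in the E16 cortex, inside the gene at 2469 bp and 2715 bp after the start printed here. Rps19, the gene most often mutated in Diamond-Blackfan anaemia, had 7.23 and 14.3, with summits 18 bp apart near the end of the body. The direction was the opposite for Rps15, with 11.7 in the E16 basal ganglia and 9.01 in the E16 cortex. Rps24 had 11.5 in both. At the low end Rps7 and Rps3 had 3.13 and 3.32 in the E16 basal ganglia, with Rps15a also at 3.32, and Rps3 had 4.35 in the E16 cortex.

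A summit in 1 of these lists alone was found at 11 genes, with fold enrichments of at most 6.001. In the E16 basal ganglia alone they were Rpl15 (5.59), Rpl27 (3.91), Rpl5 (2.54), Rps6 (4.49), the main substrate of S6 kinase, and Rps7 (3.13). In the E16 cortex alone they were Rpl34 (4.35), Rpl37a (4.56), Rpl39 (4.56), Rpl7 (4.35), Rps28 (5.14) and Rps29 (6.001). The Rps29 summit lay 148 bp outside that gene, within the small cytoplasmic RNA gene Rn7s1, and the Rps28 summit lay inside Kank3. In 14 genes no list had a summit within 5 kb: Rpl30, Rpl36a, Rpl37, Rpl37rt, Rplp2, Rps13, Rps16, Rps20, Rps23, Rps25, Rps26, Rps27, Rps27a and Rps27rt. Of these, 9 are small subunit genes and 5 large. The genes with a summit were longer, with a median of 3609.5 bp against 2541 bp for those without in the E16 basal ganglia and 3230 bp against 2693 bp in the E16 cortex. Of the genes outside the rule, Fau had no summit and Rps3a1 had 1, in the E16 cortex (4.13). Rack1, a scaffold protein on the small subunit, had a strongest fold enrichment of 13.7 in the E16 basal ganglia and 26.4 in the E16 cortex. None of these had a summit in the other 3 lists.

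Regions at ribosomal protein genes were wider than the rest of their lists, with a median fold enrichment near that of the list. At ribosomal protein genes the median region width was 681.5 bp in the E16 basal ganglia, against 501 bp over that list, and 726 bp in the E16 cortex, against 571 bp. Regions wider than 1 kb made up 35.6% of those at ribosomal protein genes and 13.8% of the list in the E16 basal ganglia, and 39.2% and 25.2% in the E16 cortex. The median fold enrichment was 4.39 against 4.55 for the list in the E16 basal ganglia and 5.21 against 5.02 in the E16 cortex. The 118 regions were 0.798% of the E16 basal ganglia list by number and 1.25% by length, and the 125 regions 1.97% and 2.47% of the E16 cortex list. Among the 500 regions highest in −log10 q, 3 were at ribosomal protein genes in the E16 basal ganglia and 14 in the E16 cortex.

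Many summits were shared with a neighbour. In the E16 basal ganglia the 121 pairs of gene and summit divided into 65 with the summit inside the ribosomal protein gene, 22 inside another protein-coding gene and 34 in neither. The ribosomal protein gene was the nearest protein-coding gene in 90 of the 121. In the E16 cortex the 128 pairs divided into 68, 24 and 36, and it was the nearest in 98. The strongest summit of a gene lay inside it in 30 of 58 genes in the E16 basal ganglia and in 30 of 59 in the E16 cortex. Genes with at least 2 summits numbered 33 in the E16 basal ganglia and 41 in the E16 cortex, and 6 in each list had at least 4. These counts of neighbours and of summits per gene were not computed over other protein-coding genes, so whether they are particular to this group was not tested. The 29 genes that host a snoRNA had shares close to those of the other 49: 22 (75.9%) had a summit in each of these lists, against 36 (73.5%) in the E16 basal ganglia and 37 (75.5%) in the E16 cortex.

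Other gene groups of the translation and housekeeping machinery were read the same way. Over all protein-coding genes the shares with a summit were 23.4% in the E16 basal ganglia and 14.8% in the E16 cortex. Of 78 genes for mitochondrial ribosomal proteins, 19 (24.4%) had a summit in the E16 basal ganglia and 13 (16.7%) in the E16 cortex, close to those shares. Of 64 genes named Eef or Eif, for translation factors and some of their modifying and binding proteins, 23 (35.9%) and 21 (32.8%) had one. The elongation factor Eef2, which moves the ribosome along the messenger RNA, had a fold enrichment of 15.1 in the E16 basal ganglia and 30.7 in the E16 cortex. Eef1a1, which brings aminoacyl transfer RNA to the ribosome, had 14.1 and 18.6. Of 39 proteasome subunit genes, 9 (23.1%) and 10 (25.6%) had a summit, and of 13 genes for RNA polymerase II subunits, 4 (30.8%) and 3 (23.1%). The proteasome share in the E16 basal ganglia was near that of all genes. No gene of the Eef and Eif group had a summit in either olfactory bulb list, where 3.24% (E16) and 1.8% (P3) of all protein-coding genes had one. In the P3 cortex 4 of that group (6.25%) had one, near the 5.3% of all. These gene groups differ in gene length, with medians from 6257 to 15017.5 bp, longer than the ribosomal protein genes.

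**Figure D4:**
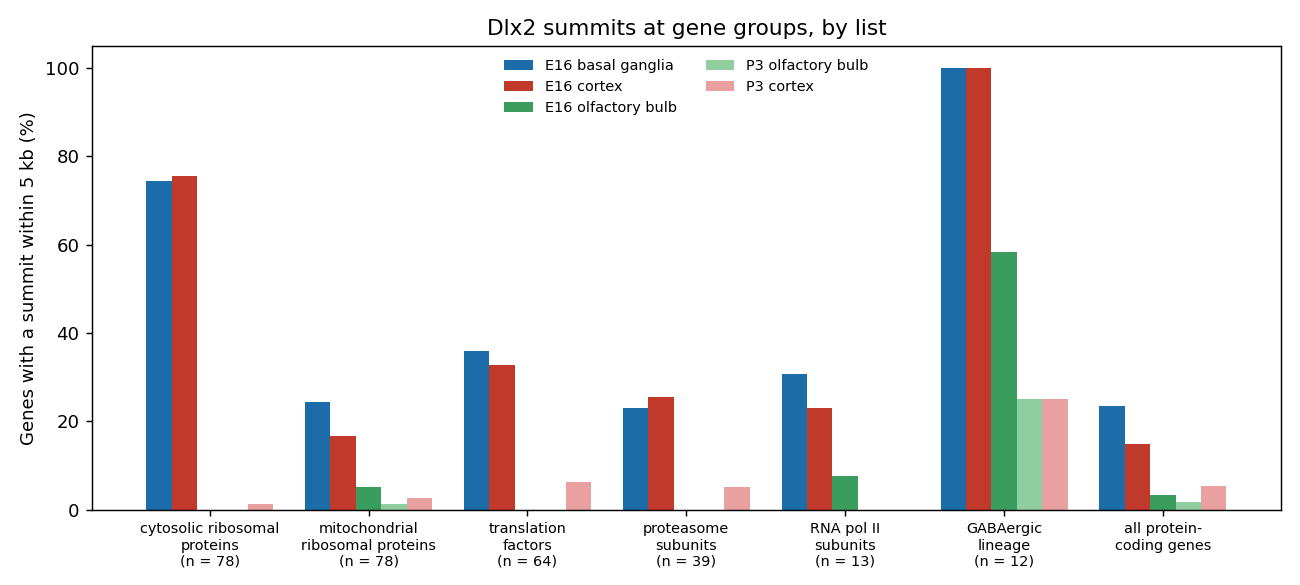
Percent of genes with a summit within 5 kb (vertical axis) for 6 gene groups and all protein-coding genes (horizontal axis), with 1 bar for each of the 5 lists. The cytosolic ribosomal protein genes stand at 74.4% (basal ganglia) and 75.6% (cortex) in 2 of the E16 lists and at most at 1.28% elsewhere, while 3 or more of the 12 GABAergic genes carry a summit in every list.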

How the data were processed

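Reads were single-end, and Trimmomatic, Bowtie2, SAMtools and MACS2 were used without stated versions, with the mouse build mm10, per the submitters' processing notes. The authors deposited 1 narrowPeak list per Dlx2 library, whose columns give the fold enrichment (a ratio), the −log10 p and the −log10 q at the summit, and a score that was not used. No source used here gives the calling threshold, the control library or the depth. Gene boundaries were those of RefSeq (GRCm38.p6), without strand; strands and start sequences came from RefSeq promoter sequences of 58 of the 78 genes. A gene counted as carrying a region when its summit lay within 5 kb of the gene body. Counts carry exact 95% Clopper-Pearson intervals. The code was tested on simulated summits, and ran in Python 3.11.15 with pandas 2.3.3, numpy 2.4.6 and scipy 1.17.1. Named genes were those with a summit in the olfactory bulb or P3 lists or in at least 3 lists, the 10 strongest and 5 weakest by −log10 q in each of the E16 cortex and basal ganglia lists, and those at the 5 kb limit. Others were named after their values were seen, by subunit, in lists of presence and absence, or for their role. Members, gene lists and rules were chosen with earlier results of these data known. Results for some genes that these rules name are not reported here.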

Additional observations from a re-analysis of the deposited data

How the results depend on the processing

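The counts of 58 and 59 ribosomal protein genes moved by less than 1.5 times with summits inside the gene only, within 1 kb or 10 kb, with a −log10 q of at least 5, without regions wider than 1 kb, with any base of a region within 5 kb, with the nearest gene only, and with ribosomal genes outside the rule added. They fell to 5 (E16 basal ganglia) and 21 (E16 cortex) when each list was reduced to its 734 strongest regions. Without regions wider than 1 kb the median fold enrichment was 3.93 and 4.56. The E16 olfactory bulb count was 1 within 10 kb. The P3 cortex count was 0 inside the gene, 0 within 1 kb, 0 by nearest gene and 3 within 10 kb. The 53 shared genes and the shares past the gene end moved by less than 1.5 times under the alternatives that were chosen after seeing the data. No paired analysis was possible because each group has 1 library. Depth, and so what could be detected in each library, is unknown.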

Other observations

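Pseudogene copies of ribosomal protein genes were counted in the same way. Of 318 genes named Rpl or Rps with the ending -ps, 10 (3.14%) had a summit within 5 kb in the E16 basal ganglia, 2 (0.629%) in the E16 cortex, 1 in each olfactory bulb list (0.314%) and 4 (1.26%) in the P3 cortex. Among short protein-coding genes the shares were 16.1% in the E16 basal ganglia, 12.8% in the E16 cortex, 0.783% in the E16 olfactory bulb, 0.488% in the P3 olfactory bulb and 1.94% in the P3 cortex, so in the last 3 lists the pseudogenes were near that background. A summit inside the pseudogene was found for 0 of 318 in the E16 basal ganglia and for 1 in the E16 cortex. A summit within 5 kb of Rpl31-ps17 was present in each of 3 lists. The fold enrichment was 4.74 in the E16 olfactory bulb, 7.998 in the P3 olfactory bulb and 12.5 in the P3 cortex. Whether these summits share a position was not tested. The median length of the pseudogenes is 531 bp, and how well short reads can be placed in such copies was not tested.

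The S6 kinase genes, left out by the rule, encode kinases of which some phosphorylate Rps6. Of 10 genes named Rps6k, 4 had a summit in the E16 basal ganglia, 4 in the E16 cortex, 2 in the E16 olfactory bulb and 1 in each P3 list. Rps6kc1 had one in 4 lists, with fold enrichments of 13.3 in the E16 basal ganglia, 4.56 in the E16 cortex, 6.94 in the E16 olfactory bulb and 4.62 in the P3 olfactory bulb. Over all protein-coding genes the shares with a summit were 23.4% in the E16 basal ganglia, 14.8% in the E16 cortex and 3.24% in the E16 olfactory bulb. At P3 they were 1.8% in the olfactory bulb and 5.3% in the cortex. The Rps6k genes are long, with a median of 79298.5 bp, and no share over genes of like length was computed.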
